A study of Mus musculus with 6 samples.

Results

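The AP-1 and BATF factors followed here are the 9 bZIP transcription factor genes Fos, Fosb, Fosl2, Jun, Junb, Jund, Batf, Batf3 and Atf3, of 32285 genes in the count tables. They were chosen by name, as members of 1 family, with earlier results of these data known. Each was followed in 4 single-cell RNA libraries and, within tumors, in cells with or without a molecule of Tcf7. Tcf7 is the gene of the stem-like T cell factor TCF1. The study asked what sensing of the cytokine IFNγ does to CD8 T cells in melanoma. Control mice were CD8-Cre Rosa26Tomato and CD8-IFNγRKO mice were CD8-Cre IFNgR1flox/flox Rosa26Tomato, so that both genotypes carried the Cre driven in CD8 T cells and the Tomato reporter, and the receptor gene Ifngr1 was deleted in cells in which Cre had acted. Mice of both genotypes bore B16-OVA tumors, a mouse melanoma line that carries ovalbumin as a model antigen. CD8+ Tomato+ cells were sorted from the tumor and the draining lymph node (LN). The 3 mice of a group were pooled into 1 library per tissue and genotype. Tumors were digested with enzymes at 37°C and LNs were not, so that the tissue and its dissociation cannot be told apart.

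AP-1 is a dimer of a Fos protein and a Jun protein, or of 2 Jun proteins, joined through a leucine zipper. Fos, Fosb, Jun, Junb, Atf3 and the other immediate early genes are transcribed within minutes of T cell receptor stimulation or cell stress, without new protein synthesis. BATF and BATF3 also pair with Jun proteins but lack the long activation domains of Fos proteins, and in T cells they bind composite sites together with IRF4 or IRF8. AP-1 with NFAT switches on cytokine genes in effector T cells, while BATF and IRF4 are known for their part in effector and exhausted CD8 T cells. A known effect of tissue digestion at body temperature is to switch on Fos, Jun and heat shock genes in the cells being isolated.

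Filtering left 7100 cells of 11369 barcodes in the control tumor, 8634 of 12214 in the CD8-IFNγRKO tumor, 6640 of 12979 in the control LN and 6730 of 11298 in the CD8-IFNγRKO LN. The median depth per cell ran from 3863 unique molecular identifiers (UMIs, each a counted RNA molecule) in the CD8-IFNγRKO LN to 9399.5 in the CD8-IFNγRKO tumor, and the total from 28834447 to 93969472 UMIs per library. With 1 library per group there was no replicate, and no test of a genotype or tissue was possible. Intervals cover counting error only, at 95%, and say nothing of the spread between mice. Libraries shared 51 to 82 barcode sequences in each pair, at most 1.23% of the cells of the smaller library. All 5 genes of the CD8 T cell list were detected in each library, with a summed level of 4746 to 7871 CPM (UMIs of a gene scaled to a fixed total for the pool of cells). The CD4 gene was at 4.22 to 18.4 CPM, the macrophage and dendritic cell list at 0.694 to 8.57 CPM, and the B cell, NK cell, melanoma and red blood cell lists were at 3.23 CPM or less. Ifngr1, the targeted gene, stood at 718 CPM in the control tumor and 237 CPM in the CD8-IFNγRKO tumor, and at 182 and 137 CPM in the corresponding LNs. Whether the counted 5′ reads cover the deleted part of Ifngr1 is not given in the sources used here. Few cells of a type that lacks these genes were in the libraries, so that a background of free RNA could not be measured for them.

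The promoters of Fos, Jun and Junb are shown because these genes were called between tumor cells with and without Tcf7 in CD8-IFNγRKO mice. Fosb was called there too, but its window overlaps the span given for the gene and is not shown. Each line gives the 250 bases before the start site of the gene, 5′ to 3′ on the gene's strand, from RefSeq on GRCm38.p6, with the motifs that were found in capitals. All 9 members had an entry. The Fos window lies at chr12:85473640-85473889 on the plus strand, the Jun window at chr4:95052223-95052472 on the minus strand and the Junb window at chr8:84978749-84978998 on the minus strand.
Fos: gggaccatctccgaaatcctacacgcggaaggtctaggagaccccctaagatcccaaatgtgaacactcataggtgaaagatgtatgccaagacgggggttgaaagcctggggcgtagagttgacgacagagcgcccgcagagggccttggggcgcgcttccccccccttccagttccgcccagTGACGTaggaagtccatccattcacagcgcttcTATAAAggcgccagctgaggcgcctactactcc
Jun: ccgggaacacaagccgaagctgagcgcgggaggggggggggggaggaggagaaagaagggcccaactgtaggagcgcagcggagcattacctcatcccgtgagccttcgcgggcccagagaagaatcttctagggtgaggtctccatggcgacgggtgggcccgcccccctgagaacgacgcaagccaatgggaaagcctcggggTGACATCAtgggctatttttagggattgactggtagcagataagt
Junb: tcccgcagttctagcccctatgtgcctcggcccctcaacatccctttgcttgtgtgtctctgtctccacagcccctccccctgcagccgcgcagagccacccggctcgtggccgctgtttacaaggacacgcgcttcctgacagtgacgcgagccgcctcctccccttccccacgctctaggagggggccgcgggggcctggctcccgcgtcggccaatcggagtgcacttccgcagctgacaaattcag
The motifs searched on both strands were the CRE core TGACGT and the CRE-like site TGACNTCA, which can overlap each other, the AP-1 site TGANTCA, the TATA box TATAAA and the serum response element. They occurred in 6.47%, 7.49%, 6.75%, 12.4% and 1.47% of 32851 promoter windows of the same length. Fos held a CRE core 66 bases and a TATA box 33 bases before the start site, and Jun held a CRE-like site 45 bases before it. Batf and Atf3 each held a CRE core, and no member window held an AP-1 site. A match of letters is a description and not a binding site.

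The Fos proteins, which bind DNA as partners of a Jun protein, split into genes that were low and genes that were high in tumors. Fos was at 165 CPM in the control tumor, 210 in the CD8-IFNγRKO tumor, 1043 in the control LN and 978 in the CD8-IFNγRKO LN. Fosl2, which codes for the more slowly induced Fra-2 protein, was at 92.5, 52.7, 17.4 and 17.6 CPM in the same order. Fos was thus highest in both LNs and Fosl2 highest in both tumors. Fosb, the gene of an early induced protein that also exists as a truncated splice form, was at 103 CPM in the control tumor, 54.0 in the CD8-IFNγRKO tumor, 87.1 in the control LN and 65.5 in the CD8-IFNγRKO LN. For Fosb the control library was the higher one in either tissue, and the tumors did not stand apart from the LNs.

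Of the Jun proteins, which can pair with each other as well as with Fos and BATF proteins, Jun followed the order of Fos. Jun, the strongest activator of its family, was at 198 CPM in the control tumor, 258 in the CD8-IFNγRKO tumor, 883 in the control LN and 827 in the CD8-IFNγRKO LN. Junb, which can oppose Jun and is a usual partner of BATF, was at 1528, 935, 1906 and 1888 CPM. Jund, the Jun gene that resting cells also express, was at 2261, 1636, 1628 and 1666 CPM. The CD8-IFNγRKO tumor stood below the other libraries for Junb, and the control tumor above the others for Jund.

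BATF and ATF3 transcripts were higher in tumors than in LNs. Batf was at 172 CPM in the control tumor, 130 in the CD8-IFNγRKO tumor, 42.4 in the control LN and 46.1 in the CD8-IFNγRKO LN. Atf3, a stress-induced factor that can repress its targets, was at 34.0, 27.5, 5.71 and 5.51 CPM. Batf3, best known for its part in cross-presenting dendritic cells, was near the limit of detection, with 32 UMIs in the control tumor, 129 in the CD8-IFNγRKO tumor and 0 in either LN, a count that allows up to 3 UMIs. In the plot of levels by library, Fos and Jun take the opposite order of tissues from Fosl2, Batf and Atf3.

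**Figure D1:**
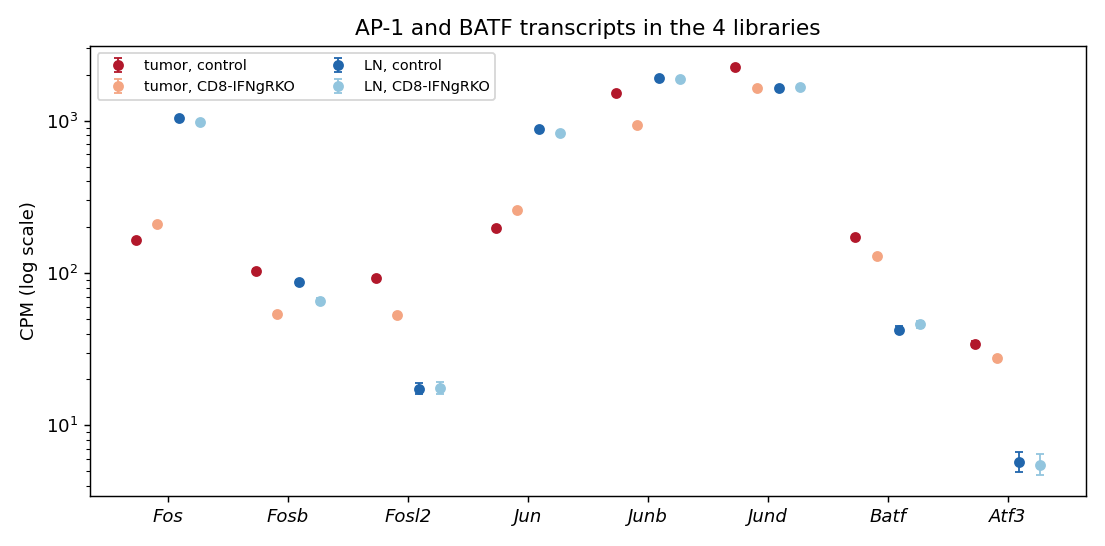
Level of 8 of the genes in the 4 libraries, Batf3 left out, in CPM on a log axis, with 95% counting intervals. Fos and Jun sit highest in the LN libraries, and Fosl2, Batf and Atf3 in the tumor libraries.

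The comparison of tissues asks how the family differs between CD8 T cells in the tumor and in the draining node. A gene was tested where either pool had at least 5 CPM and both together at least 50 UMIs, and called where the pools differed by at least 1.5-fold. All members but Batf3 were tested. In control mice 3 of 8 members were higher in the tumor and 2 were lower, where 26.2% and 24.2% of 9535 tested genes were. Fos was 6.33-fold lower in the tumor than in the LN (log2 ratio -2.66) and Jun 4.45-fold lower (-2.15). Fosl2 was 5.31-fold higher (2.41), Atf3 5.96-fold higher (2.57) and Batf 4.06-fold higher (2.02). With the LN set to a floor of 3 UMIs the fold of Batf3 was 5.37, and the lower limit of its log2 ratio by the exact counting interval was 2.04. Fosb, Junb and Jund had log2 ratios of 0.24, -0.32 and 0.47, within 1.5-fold. Each direction thus held a share of the members near or above that of all genes, about 1 in 4 of which was called either way.

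In CD8-IFNγRKO mice 3 members were higher in the tumor and 3 lower, where 27.6% and 26.0% of 9526 tested genes were. Fos was 4.66-fold lower in the tumor, Jun 3.21-fold lower and Junb 2.02-fold lower. Fosl2 was 2.99-fold higher, Batf 2.82-fold higher and Atf3 4.99-fold higher. For Batf3 the fold over the same floor was 13.2 and the lower limit of the log2 ratio 3.40. Among cells without a cell cycle UMI the log2 ratio was -0.77 for Fos, -0.69 for Jun and -0.14 for Junb, so that Junb was within 1.5-fold, and Fosb was at 0.60, past it. In the tumor 386 of these 1289 cells held a Tcf7 UMI, against 837 of 8634 over all cells. The median log2 ratio of the members was 0.47 in control mice and -0.03 in CD8-IFNγRKO mice, and that of all tested genes was 0.02 in both. Genes of at least 50 CPM, however, had a median of 0.14 and 0.17, and scaling that sets this median to 0 lowers each tissue ratio by as much. That scaling turned no sign of Fosb or Jund. Under library sizes without receptor, heat shock, ribosomal and mitochondrial genes Junb in control mice was at -0.61, past 1.5-fold. With each cell thinned to 1600 UMIs, 15.7% and 22.3% of cells in the control and CD8-IFNγRKO tumors held a Fos UMI, against 66.5% in each LN. For Batf these shares were 23.1% and 18.1% in tumors against 6.14% and 7.16% in LNs, and for Fosl2 16.2% and 8.92% against 2.70% and 2.71%. At full depth the shares for Batf were 59.2%, 60.8%, 16.1% and 17.0%. Thinning left out 701 and 278 tumor cells and 237 and 41 LN cells that held fewer UMIs.

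Around the members, of the 5 binding partners 3 were higher and 1 lower in the control tumor than in the LN, among them Irf8 (log2 ratio 6.39), Irf4 (2.78) and Nfatc2 (-0.75). Irf4 and Irf8 code for the partners with which BATF binds composite sites. Other bZIP genes had 5 higher and 7 lower of 15 tested, with the AP-1 repressor gene Jdp2 at 6.99, the cAMP-response gene Crem at 3.56 and Bach2, a bZIP repressor that keeps T cells from effector fates, at -2.39. Of the other immediate early genes 4 were higher and 5 lower of 12, led by Nr4a2 (3.26) and Nr4a1 (2.37), nuclear receptors induced by T cell receptor signaling, with Myc at -2.28. Among known AP-1 targets Csf2 (5.78, with 3 UMIs in the LN and an interval of 4.22 to 8.06) and Ifng (5.31) were higher and the early activation marker Cd69 (-2.43) was lower. No heat shock gene passed 1.5-fold between tissues in control mice, of 8 tested, and 4 were higher in the tumor in CD8-IFNγRKO mice. Stem-like markers summed to 156 and 153 CPM in the tumors and 2005 and 2070 in the LNs, and exhaustion markers to 2249 and 1556 against 67.3 and 70.6. Their part in the members' difference was not tested, and for a gene in a library fewer expressing cells and less RNA per cell cannot be told apart from CPM alone.

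Comparing genotypes within a tissue asks what loss of the IFNγ receptor on CD8 T cells goes with. In tumors Fosb was 1.91-fold lower in CD8-IFNγRKO cells than in control cells (log2 ratio -0.93, interval -0.99 to -0.88). Fosl2 was 1.76-fold lower (-0.81, -0.87 to -0.76) and Junb 1.63-fold lower (-0.71, -0.72 to -0.70). No tested member was 1.5-fold higher, and 3 of 8 were lower, where 5.94% and 4.62% of 9025 tested genes were higher and lower. Fos and Jun leaned the other way, at 0.35 (0.32 to 0.39) and 0.38 (0.35 to 0.41). Jund, Batf and Atf3 were at -0.47, -0.41 and -0.31. The median of all 9 members was -0.41 and that of all tested genes 0.02. Batf3 was at 0.538 CPM in the control and 1.37 CPM in the CD8-IFNγRKO tumor, below the level at which a gene was tested.

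In LNs no member passed 1.5-fold in either direction, where 0.273% of 8791 tested genes were higher and 0.489% lower. Fosb had the log2 ratio farthest from 0, at -0.41 (-0.50 to -0.32), and Batf was at 0.12 (0.01 to 0.23). The others lay between -0.09 for Jun and 0.03 for Jund. The median of the members was -0.03 and of all tested genes 0.03. In the plot of genotype ratios the LN points lie near 0 and the tumor points are spread on both sides of it. Ifngr1 itself was at -1.60 in tumors and -0.41 in LNs, so that the targeted transcript was lower in both tissues.

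**Figure D2:**
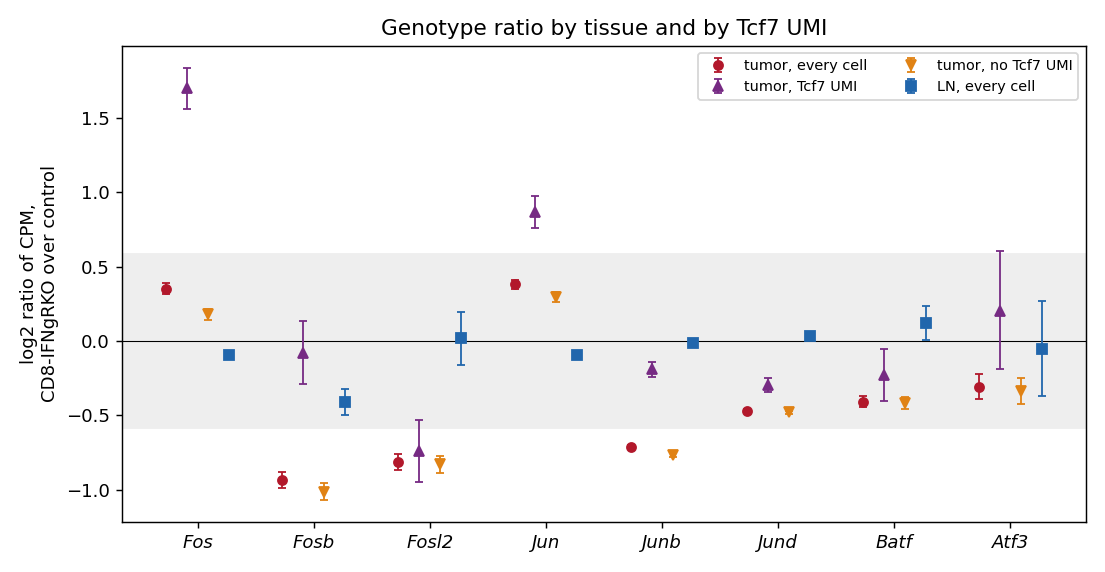
Log2 ratio of CD8-IFNγRKO to control CPM for 8 genes, in tumors and in LNs and in tumor cells with or without a Tcf7 UMI, with 95% counting intervals and a gray band for changes under 1.5-fold. Fosb, Fosl2 and Junb lie below the band in tumors, and Fos and Jun lie above it in tumor cells with a Tcf7 UMI.

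Genes tied to AP-1 also differed between the tumors. Of 11 other immediate early genes tested 6 were lower and 1 higher in the CD8-IFNγRKO tumor, with a median of -0.60. Egr1, a zinc finger factor induced alongside Fos, was at 197 CPM in the control and 82.3 CPM in the CD8-IFNγRKO tumor (-1.26), Nr4a3 was at -1.21 and Myc at 1.16. Of 5 targets 3 were lower and 1 higher, with Csf2, the gene of the cytokine GM-CSF, at -1.27, Fasl, a death ligand, at -0.65 and Cd69 at 0.59. None of 10 upstream kinases passed 1.5-fold. Of the binding partners Nfatc1 was lower, at 206 CPM in the control and 135 CPM in the CD8-IFNγRKO tumor (-0.62), and of 16 other bZIP genes Jdp2 (-1.13) and Bach2 (-0.72) were lower and Maf (0.99) higher. In LNs these lists held 1 called gene in all, the cytokine gene Tnf at -0.66.

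Heat shock genes, cell cycle and depth differed between the same libraries. Of 8 heat shock genes 7 were higher in the CD8-IFNγRKO tumor and none lower, with a median of 0.85, Hspa1a at 1.89 and Hspa1b at 1.66. In LNs 2 were higher, Hspa1b at 0.66 and Hsph1 at 0.60. The share of cells with a UMI of a cell cycle gene was 69.1% in the control and 85.1% in the CD8-IFNγRKO tumor, and 32.4% and 30.8% in the LNs. Among tumor cells without such a UMI, Fos stood at 1.37 and Jun at 1.05, now both past 1.5-fold, while Fosb (-0.50), Fosl2 (-0.43) and Junb (-0.08) were within it. This choice also shifted the share of cells with a Tcf7 UMI, unequally in the 2 tumors. It kept 386 such cells of 1289 in the CD8-IFNγRKO and 180 of 2191 in the control tumor. Over all cells the numbers were 837 of 8634 and 372 of 7100. Among tumor cells with few heat shock UMIs Fos was at -0.13, Jun at 0.02 and Fosb at -1.22. Atf3 was lower too, at -0.85, which made 4 lower members, where 3.78% of tested genes were lower. By mean CPM over cells Junb was at -0.56, within 1.5-fold, and 2 members were lower, where 3.98% of tested genes were. The ratios of Fos and Jun thus both rose without cell cycle UMIs and both fell with few heat shock UMIs. The part of cell cycle, heat shock and the share of cells with a Tcf7 UMI in the genotype difference was not tested beyond these values.

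Within tumors, a Tcf7 UMI was found in 372 control cells (5.24%) and 837 CD8-IFNγRKO cells (9.69%), and in 85.1% and 84.8% of LN cells. Thinned to 1600 UMIs per cell the shares were 2.92%, 5.46%, 58.2% and 57.6%. A cell without a Tcf7 UMI may still express the gene. Few barcodes could measure free Tcf7 RNA: 0 of 5 macrophage or dendritic cell barcodes in the control tumor held a Tcf7 UMI, which allows a share of up to 52.2%. The markers went with the classes. In cells with 0, 1 and at least 2 Tcf7 UMIs the homing receptor gene Ccr7 was at 49.9, 311 and 603 CPM in the control tumor and 39.3, 280 and 485 CPM in the CD8-IFNγRKO tumor. Pdcd1, the gene of the exhaustion receptor PD-1, was at 834, 540 and 442 CPM in the control and 636, 424 and 324 CPM in the CD8-IFNγRKO tumor.

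In the CD8-IFNγRKO tumor Fos, Jun, Fosb and Junb were higher in cells with a Tcf7 UMI than in cells without one. Fos was at 585 CPM with and 186 CPM without a Tcf7 UMI, 3.15-fold higher (log2 ratio 1.66, 1.60 to 1.71). Jun was at 594 and 236 CPM, 2.51-fold higher (1.33, 1.28 to 1.38). The 2 members with the lowest levels in tumors relative to LNs were thus also those with the highest ratio between the Tcf7 classes. Fosb was at 96.5 and 51.2 CPM, 1.88-fold higher (0.91, 0.78 to 1.04), and Junb at 1604 and 891 CPM, 1.80-fold higher (0.85, 0.82 to 0.88). Fosl2 (0.55), Atf3 (0.26), Jund (0.14) and Batf (0.06) were within 1.5-fold. For Batf the levels were 135 and 129 CPM, so that Batf, which was higher in tumors than in LNs, was near level across the Tcf7 classes. Batf3 had 5 UMIs in cells with a Tcf7 UMI and 124 in the others. In all 4 of 8 tested members were higher and none lower, where 9.98% and 8.20% of 9188 tested genes were. The median of the members was 0.55 and of all tested genes -0.03.

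In the control tumor Jun was the only member past 1.5-fold, at 326 CPM with and 192 CPM without a Tcf7 UMI, 1.70-fold higher (0.76, 0.66 to 0.86). Fos was at 180 and 164 CPM (0.14, 0.01 to 0.27), Fosb at 102 and 103 CPM (-0.02) and Junb at 1831 and 1513 CPM (0.27). Fosl2, at 125 and 90.9 CPM, had a log2 ratio of 0.46, Batf one of -0.13, Jund -0.04 and Atf3 -0.28. Thus 1 of 8 tested members was higher and none lower, where 7.61% and 7.53% of 9169 tested genes were. The median was 0.14, against -0.03 for all tested genes. Batf3 had 4 UMIs in cells with a Tcf7 UMI and 28 in the others.

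**Figure D3:**
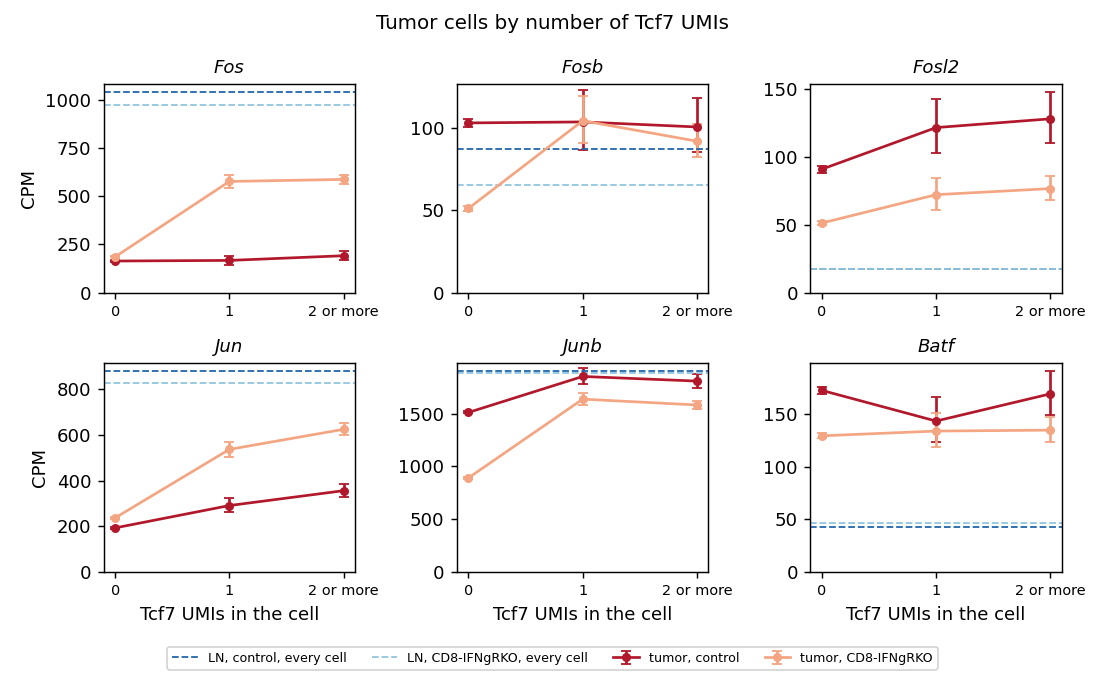
Level of 6 genes in CPM on a linear axis, in cells with 0, 1 and at least 2 Tcf7 UMIs of the control and CD8-IFNγRKO tumors, with 95% counting intervals and dashed lines for the level over all cells of each LN. In the CD8-IFNγRKO tumor Fos and Jun lie nearer to the LN level in cells with a Tcf7 UMI, and Batf lies level at 129 to 135 CPM.

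Fos was about as high with 1 as with more Tcf7 UMIs in the CD8-IFNγRKO tumor. Cells with 0, 1 and at least 2 Tcf7 UMIs held Fos at 186, 578 and 589 CPM in the CD8-IFNγRKO tumor and at 164, 167 and 192 CPM in the control tumor. Jun was at 236, 537 and 625 CPM in the former and 192, 290 and 356 CPM in the latter. The step lay between 0 and 1 Tcf7 UMI for both genes in the CD8-IFNγRKO tumor, and Jun kept an order by Tcf7 class in either tumor. In the LNs, where most cells held Tcf7, no member passed 1.5-fold between the classes, where 1.52% and 1.11% of 8886 tested genes were higher and lower in control mice and 1.58% and 0.679% of 8835 in CD8-IFNγRKO mice. Fos was at 0.04 and -0.01 and Jun at 0.01 and -0.07 there.

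Cells with a Tcf7 UMI were shallower, and fewer of them held cell cycle UMIs, in both tumors. The median depth was 4562.5 UMIs with and 6394 without a Tcf7 UMI in the control tumor, and 4521 and 9901 in the CD8-IFNγRKO tumor. A cell cycle UMI was present in 51.6% and 70.1% of cells in the former and 53.9% and 88.4% in the latter. Among CD8-IFNγRKO tumor cells without a cell cycle UMI the Tcf7 ratio was 1.23 for Fos, 1.19 for Jun and 0.61 for Junb, all still past 1.5-fold, while Fosb was at 0.41. Among cells with few heat shock UMIs it was 1.05 for Fos, 1.09 for Jun, 0.77 for Junb and 0.84 for Fosb. Over 15 alternatives the ratio stayed between 1.05 and 1.99 for Fos and between 1.09 and 1.64 for Jun. In the control tumor the same alternatives ran from 0.01 to 0.68 for Fos and from 0.73 to 1.29 for Jun. Fos was highest there among cells with few heat shock UMIs, past 1.5-fold, with Jun at 1.09.

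The lists around the members also differed by Tcf7 class in the CD8-IFNγRKO tumor. Of 11 other immediate early genes 8 were higher in cells with a Tcf7 UMI and none lower, with a median of 0.73. Zfp36, whose protein destabilizes cytokine transcripts, was at 418 and 149 CPM (1.49). In the control tumor 2 of 12 were higher and 1 lower, with Myc and Egr2 at 0.73 and Egr1 at -0.80. Bach2 was higher with a Tcf7 UMI in either tumor, at 1.85 and 2.26, as was the small Maf gene Maff at 1.36 and 1.54. Irf8 was lower in both, at -0.81 and -0.87. No heat shock gene passed 1.5-fold between the Tcf7 classes of either tumor.

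Set side by side, the genotypes were farther apart in Fos and Jun among tumor cells with a Tcf7 UMI than among the others. In these cells Fos was 3.24-fold higher in CD8-IFNγRKO than in control cells (1.70, 1.56 to 1.84) and Jun 1.82-fold higher (0.86, 0.76 to 0.97), while Fosl2 was 1.67-fold lower (-0.74, -0.95 to -0.53). Fosb, Junb, Jund, Batf and Atf3 were at -0.08, -0.19, -0.30, -0.23 and 0.20. Thus 2 of 8 members were higher and 1 lower, where 5.91% and 3.46% of 8701 tested genes were, with medians of -0.19 for the members and 0.04 for all tested genes. In cells without a Tcf7 UMI Fosb was 2.02-fold lower (-1.01), Fosl2 1.77-fold lower (-0.83) and Junb 1.70-fold lower (-0.76), and Fos (0.18) and Jun (0.30) were within 1.5-fold. There 3 members were lower and none higher, where 4.91% and 6.17% of 9007 tested genes were, with medians of -0.42 and 0.01.

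The difference between the classes in the genotype ratio was 1.52 for Fos (counting interval 1.38 to 1.66), 0.93 for Fosb (0.71 to 1.14), 0.57 for Jun (0.46 to 0.68) and 0.57 for Junb (0.52 to 0.62). For Fosl2 it was 0.09 (-0.12 to 0.30), so that Fosl2 was lower in the CD8-IFNγRKO tumor in both classes. Of 8 heat shock genes 5 were higher in CD8-IFNγRKO cells with a Tcf7 UMI and none lower, with a median of 0.80 and with Hspa1a at 186 CPM in the control and 941 CPM in the CD8-IFNγRKO tumor (2.34). Among cells with few heat shock UMIs, by a limit set within each tumor, the Tcf7 classes differed in Fos and Jun in both tumors. The Tcf7 ratio of Fos was 0.68 in the control and 1.05 in the CD8-IFNγRKO tumor there. For Jun it was 1.09 in either tumor, so that the tumors lay closer together than over all cells. The part of the heat shock genes in the Fos and Jun difference was not tested beyond these values.

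Cells with a Tcf7 UMI were not 1 kind of cell, and the 2 tumors held their kinds in unequal shares. The split by a UMI of Ccr7 or of Pdcd1 was chosen after the data had been seen. Among cells that also held Ccr7, 208 in the control and 447 in the CD8-IFNγRKO tumor, the genotype log2 ratio was 1.27 for Fos and 0.65 for Jun. Among those without Ccr7, 164 and 390 cells, it was 2.24 for Fos and 1.18 for Jun. The genotype difference was therefore present on either side of the Ccr7 split. Cells with both Tcf7 and Pdcd1, 191 and 379 in number and of similar median depth (8274 and 7983 UMIs), had Fos at 154 and 376 CPM (1.29) and Jun at 256 and 432 CPM (0.76). Cells with Tcf7 and no Pdcd1, 181 and 458 in number, had Fos at 258 and 991 CPM (1.94) and Jun at 532 and 909 CPM (0.77). Fos and Jun were thus past 1.5-fold in each of these 4 subsets.

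T cell receptor sequences gave the size of the clone to which a cell belonged. A clone, cells that share both receptor chains, could be assigned to 4282 control (60.3%) and 5936 CD8-IFNγRKO (68.8%) tumor cells. Cells in clones of at least 2 cells numbered 4100 and 5572, and cells seen once 182 and 364. In the CD8-IFNγRKO tumor Fos was at 187 CPM in expanded clones and 890 CPM in cells seen once (-2.25), Jun at 238 and 843 CPM (-1.82) and Junb at 888 and 2060 CPM (-1.21). Fosb, at 50.5 and 121 CPM (-1.27), and Fosl2, at 51.9 and 81.8 CPM (-0.66), were lower in expanded clones too. Thus 5 of 8 members were lower and none higher, where 17.3% and 23.6% of 9325 tested genes were. Batf (0.07), Jund (-0.17) and Atf3 (0.48) were within 1.5-fold.

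In the control tumor the Fos level did not separate the clone sizes, at 184 CPM in expanded clones and 207 CPM in cells seen once (-0.17). Fosb, at 104 and 64.8 CPM (0.68), and Atf3, at 33.7 and 13.2 CPM (1.35), were higher in expanded clones, and Fosl2, at 94.7 and 145 CPM (-0.61), was lower. Jun was at 201 and 298 CPM (-0.57). Here 2 of 8 members were higher and 1 lower, where 19.3% and 13.4% of 9220 tested genes were, and Fosb took opposite directions in the 2 tumors. A Tcf7 UMI was present in 1.90% of expanded and 63.2% of single cells in the control tumor and in 3.28% and 78.3% in the CD8-IFNγRKO tumor. Median depth was 6252 and 4041 UMIs in the former and 10369.5 and 3997.5 in the latter.

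**Figure D4:**
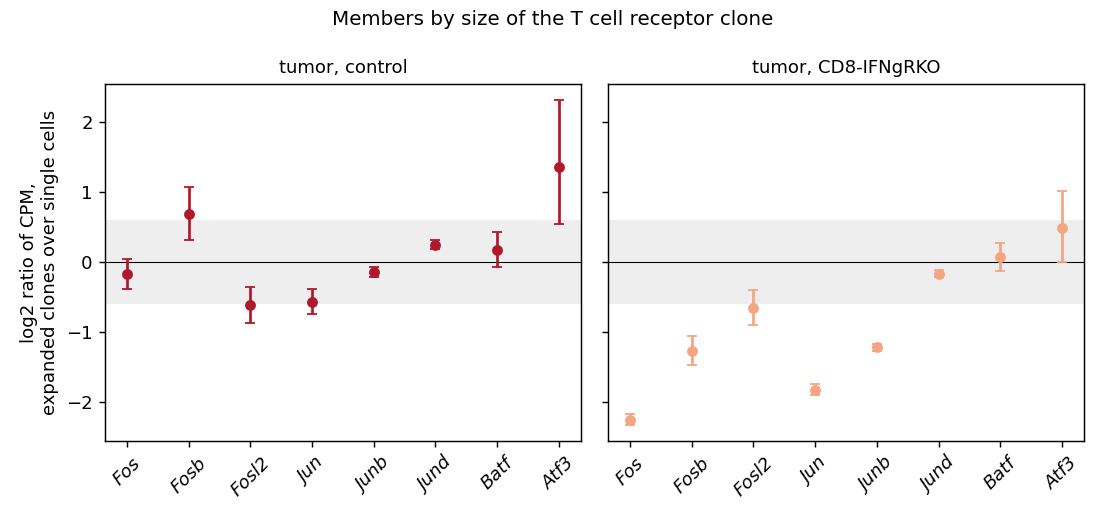
Log2 ratio of CPM in cells of expanded clones to cells seen once for 8 genes, in the control and CD8-IFNγRKO tumors, with 95% counting intervals and a gray band for changes under 1.5-fold. Fos, Jun, Junb, Fosb and Fosl2 lie below the band in the CD8-IFNγRKO tumor, where in the control tumor only Fosl2 does.

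Clone size and Tcf7 were then crossed, a step also added after the data had been seen. In the CD8-IFNγRKO tumor Fos was at 513 CPM in 183 cells with a Tcf7 UMI in expanded clones and at 861 CPM in 285 such cells seen once. Cells without a Tcf7 UMI held Fos at 180 CPM in 5389 cells of expanded clones and at 1011 CPM in 79 cells seen once. Fos was thus high in each class but the expanded cells without Tcf7, and a Tcf7 UMI was not needed for a high level in cells seen once. Jun was at 465, 865, 234 and 753 CPM in the same order. Ccr7, at 346, 737, 36.1 and 347 CPM, was also high in the single cells without a Tcf7 UMI. In the control tumor the 4 classes, of 78, 115, 4022 and 67 cells, held Fos at 220, 252, 183 and 144 CPM, with counting intervals of 178 to 269, 211 to 298, 178 to 188 and 108 to 187 CPM. The intervals of expanded cells with and without a Tcf7 UMI thus overlapped. Those of cells seen once did not, and Fos was higher with a Tcf7 UMI there. The Ccr7 levels of the 4 classes were 664, 827, 35.1 and 256 CPM. Among single cells with a Tcf7 UMI the heat shock gene Hspa1a was at 131 CPM in the control and 1024 CPM in the CD8-IFNγRKO tumor, and its part was not tested.

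Large clones of at least 30 cells gave the spread over clones of a tumor library, which pooled 3 mice. There were 17 clones of 30 to 1104 cells in the control and 23 of 32 to 1463 cells in the CD8-IFNγRKO tumor. Fos ran from 29.7 CPM in the lowest clone through a median of 177 to 648 CPM in the highest control clone, and from 85.3 through 172 to 999 CPM in CD8-IFNγRKO clones. Junb ran from 896 through 1457 to 3882 CPM in control and from 637 through 902 to 1441 CPM in CD8-IFNγRKO clones. Fosb had a median of 104 CPM over control and 48.0 CPM over CD8-IFNγRKO clones, with ranges of 30.2 to 337 and 26.0 to 113 CPM. Fosl2 ran from 40.3 through 94.1 to 182 CPM and from 21.5 through 51.0 to 79.4 CPM. The ranges of the genotypes overlapped for each of these genes, with lower medians of Junb, Fosb and Fosl2 in the CD8-IFNγRKO clones and similar medians of Fos. Batf ran from 102 to 198 CPM over control and from 88.9 to 219 CPM over CD8-IFNγRKO clones. Clones of a tumor share 1 library and are not replicates of the genotype. The paper reports no overlap of clones between mice, so differences between clones and between mice cannot be told apart here.

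From cell to cell, and among the 9 members only, Fos had its highest correlations in tumors with Jun and Fosb. Over the thinned cells of each library the correlation of Fos with Jun was 0.35 in the 6399 cells of the control tumor, 0.35 in the 8356 cells of the CD8-IFNγRKO tumor, 0.16 in the 6403 cells of the control LN and 0.11 in the 6689 cells of the CD8-IFNγRKO LN. That of Fos with Fosb was 0.29, 0.25, 0.17 and 0.13, and that of Junb with Jund 0.24, 0.18, 0.12 and 0.12. These cells share a library, and the counts are sparse. A Jun UMI was found in 43.9% of control tumor cells with a Fos UMI and 19.6% of those without, and in 48.0% and 23.6% in the CD8-IFNγRKO tumor. Batf did not follow Fosl2, although both were higher in tumors: a Batf UMI was found in 24.4% of control tumor cells with a Fosl2 UMI and 22.8% of those without, and in 19.2% and 18.0% in the CD8-IFNγRKO tumor. Of 2093 or 2094 genes compared per member, the 3 with the highest mean correlation were checked, and none reached 0.2 in all 4 libraries. Batf3, without a UMI in either LN, was not compared.

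**Figure D5:**
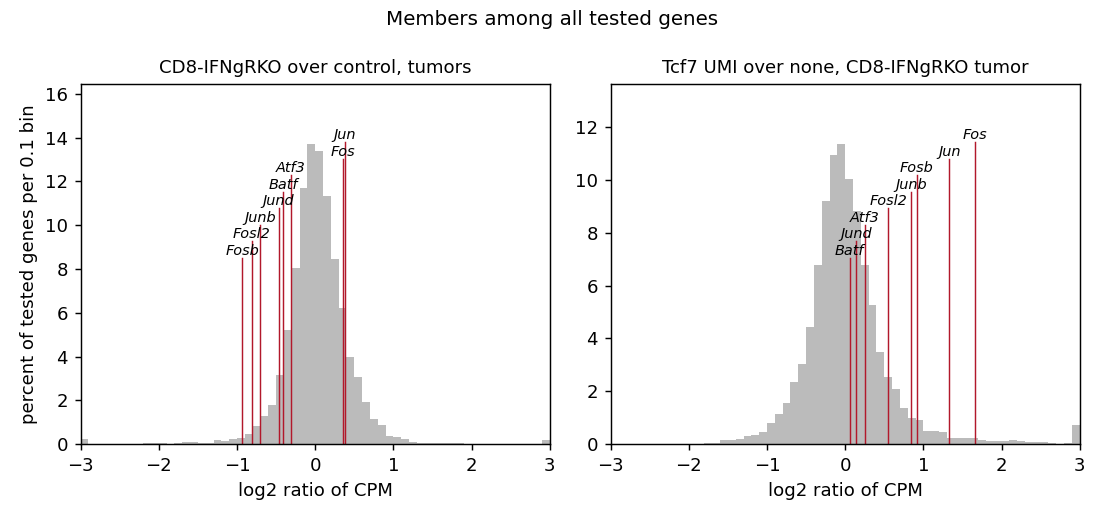
Histograms of the log2 ratios of all tested genes with the members marked, on the left for CD8-IFNγRKO over control tumors and on the right for cells with over without a Tcf7 UMI in the CD8-IFNγRKO tumor, with values beyond 3 in the end bins. Fosb, Fosl2 and Junb lie in the lower tail on the left, and Fos and Jun in the upper tail on the right.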

How the data were processed

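CD8 T cells of 4 single-cell RNA libraries (10x 5′ chemistry) and 2 T cell receptor libraries were analysed. The authors aligned reads to mm10 with Cell Ranger (6.0.0 in the file headers) and deposited raw counts of UMIs for each gene in each barcode, and counts of reads and UMIs per receptor contig, neither of them normalized. A barcode was kept if it had between 200 and 6000 genes, 3% or less mitochondrial UMIs, none of its genes over 20% of all UMIs, and Cd2, Cd8a and Cd8b1 each detected. Barcodes with at least 5 macrophage or dendritic cell UMIs making up at least 0.2% were removed. Doublets were not called; the 8% of cells with most UMIs were removed as an alternative. UMIs were pooled per group and given as CPM with exact Poisson intervals, ratios with exact conditional binomial intervals and shares with Clopper-Pearson intervals. Intervals of differences between ratios used a normal approximation. A pool with 0 UMIs was set to a floor of 3 UMIs. The named genes were the members and, from each list, up to 2 genes with the largest and 2 with the smallest ratio past 1.5-fold. Genes most like a member were sought among the 3 with the highest mean correlation. They had to have at least 50 CPM in every library and a correlation of 0.2 in every library. The members and lists were chosen with earlier results of these data known. Cells of a clone had identical V gene, J gene and CDR3 nucleotides in both chains. Scripts ran in Python 3.11.15 with matplotlib 3.10.9, pandas 2.3.3, scipy 1.17.1 and numpy 2.4.6 and were tested on simulated counts. Contrasts within Tcf7 classes, their subsets, the LN Tcf7 contrasts and the crossing with clones were added after the data had been seen.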

Additional observations from a re-analysis of the deposited data

Results flagged for a closer look

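Several members moved one way in 1 setting and the opposite way in another, with counting intervals on opposite sides of 0 in both. None of these differences was tested across mice, since each group was 1 library. Only 2 libraries stand behind each genotype or tissue ratio, and 1 library behind each Tcf7 ratio. Between tumor and LN the genotype log2 ratio of Fos differed by 0.44 (0.35 in tumors, -0.09 in LNs), that of Jun by 0.47 (0.38 and -0.09), that of Jund by -0.50 (-0.47 and 0.03) and that of Batf by -0.53 (-0.41 and 0.12). Fosb was lower in the tumor than in the LN in CD8-IFNγRKO mice and higher in control mice, with ratios of -0.28 and 0.24 that differed by -0.53. Jund had tissue ratios of -0.03 and 0.47 in the same order, a difference of -0.50. Between cells with and without a Tcf7 UMI Jund was at 0.14 in the CD8-IFNγRKO and -0.04 in the control tumor, a difference of 0.18. All of these single ratios were within 1.5-fold. Other scalings turned the sign of Fosb between tissues (-0.04 in control mice with library sizes that leave out receptor, heat shock, ribosomal and mitochondrial genes, 0.17 in CD8-IFNγRKO mice by mean CPM over cells), of Jund between tissues of CD8-IFNγRKO mice (0.04 by mean CPM over cells) and of Jund between the Tcf7 classes of the control tumor (0.06 with those library sizes). Among cells without a cell cycle UMI the tissue ratio in CD8-IFNγRKO mice was 0.60 for Fosb, past 1.5-fold in the opposite direction, and 0.41 for Jund. The Tcf7 ratio of Jund in the CD8-IFNγRKO tumor was -0.12 in cells without a cell cycle UMI and -0.04 at 3000 to 10000 UMIs. With few heat shock UMIs the genotype ratio of Fos also turned, to -0.13 in tumors and 0.009 in LNs. That of Batf in LNs turned to -0.02 in the same setting.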

How the results depend on the processing

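No paired analysis was possible because each group was 1 library and the labels give no replicate numbers. Of 735 member ratios under alternatives, 448 moved by less than their counting interval and 287 by more, none that was called changed sign, 6 calls were lost and 25 gained. Of 196 counts of called members, 176 stayed within 1.5 times. In tumors the genotype counts became 2 higher and 0 lower in cells without cell cycle UMIs, where 6.81% and 4.41% of tested genes were. They became 1 higher without the filter on low values (13.7% of tested genes) and 0 lower at 2-fold (1.48%). In LNs 1 member was higher in cells with few heat shock UMIs, where 0.532% of tested genes were. Between tissues of control mice 5 were higher in cells without cell cycle UMIs, where 23.5% of tested genes were. For Tcf7 in the control tumor 2 were higher over every barcode (9.17% of tested genes higher) and without the Cd2, Cd8a and Cd8b1 requirement (9.68%). The count was also 2 without the 8% of cells with most UMIs (9.80%), without cell cycle UMIs (12.4%) and with few heat shock UMIs (10.7%). With few heat shock UMIs the members were Fos and Jun. It was 2 as well without the filter on low values (26.6%) and when thinned (16.7%), and 0 at 2-fold (3.20%). There 1 was lower without cell cycle UMIs (20.5% of tested genes lower), by mean CPM over cells (16.0%), when thinned (26.0%) and at 3000 to 10000 UMIs (17.7%). For Tcf7 in the CD8-IFNγRKO tumor 1 was lower without the filter on low values (10.2% of tested genes) and 2 were higher at 2-fold (4.31%). The cause was not tested, except that a 2-fold limit calls fewer genes and no filter tests more. With library sizes taken without receptor, heat shock, ribosomal and mitochondrial genes, the share of higher genes among all calls fell from 52.0% to 35.1% between tissues of control mice and from 51.6% to 36.9% in CD8-IFNγRKO mice, and rose from 50.3% to 64.5% and from 54.9% to 69.1% for Tcf7 in the control and CD8-IFNγRKO tumors. By median ratio scaling it was 41.5% between tissues of CD8-IFNγRKO mice and 69.1% for Tcf7 in the CD8-IFNγRKO tumor, and by mean CPM over cells 38.7% and 44.1% for Tcf7 in the control and CD8-IFNγRKO tumors. Few UMIs stand behind Batf3, and 372 cells behind the Tcf7 class of the control tumor.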
